A study of Mus musculus with 22 samples.

Results

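Cytosolic heat shock genes were followed in the CA1 region of the mouse hippocampus under 2 diets and at 2 ages. The set was a named list of 10 genes, drawn up by function with earlier results of these data known: Hspa1a, Hspa1b, Hspa8, Hsph1, Hsp90aa1, Hspb1, Dnajb1, Dnaja1, Dnaja4 and Hsf1. All 10 were present among the 23361 genes of the expression table, and all 10 passed the filter on low values that left 16978 genes for testing. mRNA sequencing had been done on CA1 tissue dissected from single mice, 22 libraries in all. Normally fed (ad libitum, AL) mice gave 5 libraries at 5 months and 6 at 15 months, and calorie restricted (CR) mice gave 5 at 5 months and 6 at 15 months. All mice were females of a cross between Swiss Webster and DBA/C57BL6 F1 animals, and the CR mice had been on a diet reduced in carbohydrates since early adulthood. No allele was changed and no drug was given as a treatment, and mice of all 4 groups were killed in the afternoon under ketamine and xylazine anesthesia and perfused before dissection, the CR ration having been given in the morning.

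Heat shock proteins are chaperones that hold, fold or disentangle other proteins. In the cytosol an Hsp70 protein (Hspa8 in unstressed cells, Hspa1a and Hspa1b after stress) binds a client that a J-domain protein (Dnaja1, Dnaja4, Dnajb1) has delivered, an Hsp110 protein (Hsph1) helps to release ADP so that the cycle can restart, and Hsp90 (Hsp90aa1) takes over many signaling clients for final folding. Small heat shock proteins such as Hspb1 hold unfolded clients without using ATP, and heat shock factor 1 (Hsf1) is the transcription factor that binds heat shock elements and induces most of the others when proteins misfold. In brain, neurons are known to carry high Hspa8 and Hsp90 and to induce Hspa1a and Hspa1b weakly.

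A heat shock element is a row of inverted GAA units, and the shortest form searched here was GAANNTTC or TTCNNGAA on either strand, where N is any base. The RefSeq promoter table (build GRCm38.p6, 250 bases before to 50 bases after an annotated start) held windows for 7 of the 10 genes, and none for Hspa8, Hsp90aa1 and Hsf1. At least 1 match was found for 6 of these 7 genes, and none in either window of Dnajb1. Of all 32851 windows in the table, 15.1% held a match, and 0.60% held 2 matches sharing a unit. A match is a description of letters, not evidence of binding, and Hsf1 binding was not measured. The upstream parts of the Hspa1a and Hspa1b promoters are shown because these genes are near copies of each other, with the matched units in capitals. They cover chr17:34972157-34972406 and chr17:34959239-34959488, both on the minus strand.
Hspa1a: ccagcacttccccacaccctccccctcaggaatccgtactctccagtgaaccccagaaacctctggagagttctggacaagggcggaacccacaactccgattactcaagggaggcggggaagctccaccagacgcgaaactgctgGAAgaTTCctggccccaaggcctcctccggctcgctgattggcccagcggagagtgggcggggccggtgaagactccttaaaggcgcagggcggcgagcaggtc
Hspa1b: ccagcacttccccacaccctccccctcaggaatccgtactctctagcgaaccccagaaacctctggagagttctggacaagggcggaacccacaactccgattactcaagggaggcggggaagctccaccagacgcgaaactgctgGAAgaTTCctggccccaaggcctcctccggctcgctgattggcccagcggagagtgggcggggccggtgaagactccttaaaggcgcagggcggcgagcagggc
Over the full 300-base windows the 2 promoters were 98.7% identical and differed at 4 positions, and the matched element began at position -104 in both, so that this element did not distinguish the 2 genes. The next stretches show the matches of the members that were called in a comparison below. They lie at chr5:135887792-135887839 on the plus strand (Hspb1, with matches from -117 and -97), chr9:54699459-54699524 on the plus strand (Dnaja4, from -90 and -52), and chr5:149636352-149636379 and chr5:149636280-149636308 on the minus strand (Hsph1, with a match from -54 before the start and 2 matches that share a unit just after it). Positions count from the RefSeq start of the window, and a second Hsph1 window puts its first match at -33. In GENCODE M21, annotated exons hold 25 of the 28 bases of the first Hsph1 stretch and all 29 of the second. They also hold 11 of the 66 Dnaja4 bases and 0 of the 48 Hspb1 bases, so that not all stretches lie upstream of the gene.
Hspb1: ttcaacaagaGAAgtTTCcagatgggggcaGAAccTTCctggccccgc
Dnaja4: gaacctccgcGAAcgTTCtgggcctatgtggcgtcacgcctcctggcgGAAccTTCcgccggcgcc
Hsph1, before the start: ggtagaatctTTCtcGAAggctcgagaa
Hsph1, after the start: gctgcagaTTCtgGAAagTTCtcctcagt
Dnaja1 held 1 match, from -124 of a RefSeq start, and all 28 bases of the stretch around it lie in annotated exons. Hspb1 and Dnaja4 thus had 2 separate matches each, and only Hsph1 among the matched members had 3 adjoining units.

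Values were given as FPKM (fragments per kilobase of transcript, scaled to the mapped fragments of the library), which is per length, so that levels of different genes can be set side by side. Over all 22 libraries the mean FPKM fell in the order Hspa8 (684), Hsp90aa1 (363), Hsph1 (103), Dnaja1 (59.1), Dnajb1 (32.5), Dnaja4 (30.1), Hsf1 (20.0), Hspb1 (9.33), Hspa1b (4.75) and Hspa1a (2.99). The constitutive Hsp70, Hspa8, was the highest in every library, from 506 to 887 FPKM, and did not overlap with Hsp90aa1, which ran from 291 to 430 FPKM. Hsp90aa1, Hsph1 (71.9 to 129 FPKM) and Dnaja1 (44.2 to 70.7 FPKM) were also apart from each other in all libraries. Dnaja1, Dnajb1 (23.4 to 44.4 FPKM), Dnaja4 (21.1 to 41.5 FPKM) and Hsf1 (16.4 to 24.7 FPKM) each overlapped with the next in that order, as did Hspb1 (3.91 to 16.2 FPKM), Hspa1b (1.99 to 9.44 FPKM) and Hspa1a (2.09 to 4.64 FPKM). The stress-inducible Hsp70 genes were therefore the lowest of the set, although both were above 0 in all libraries. In dissected tissue, fewer cells of a type and less RNA per cell cannot be told apart.

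**Figure D1:**
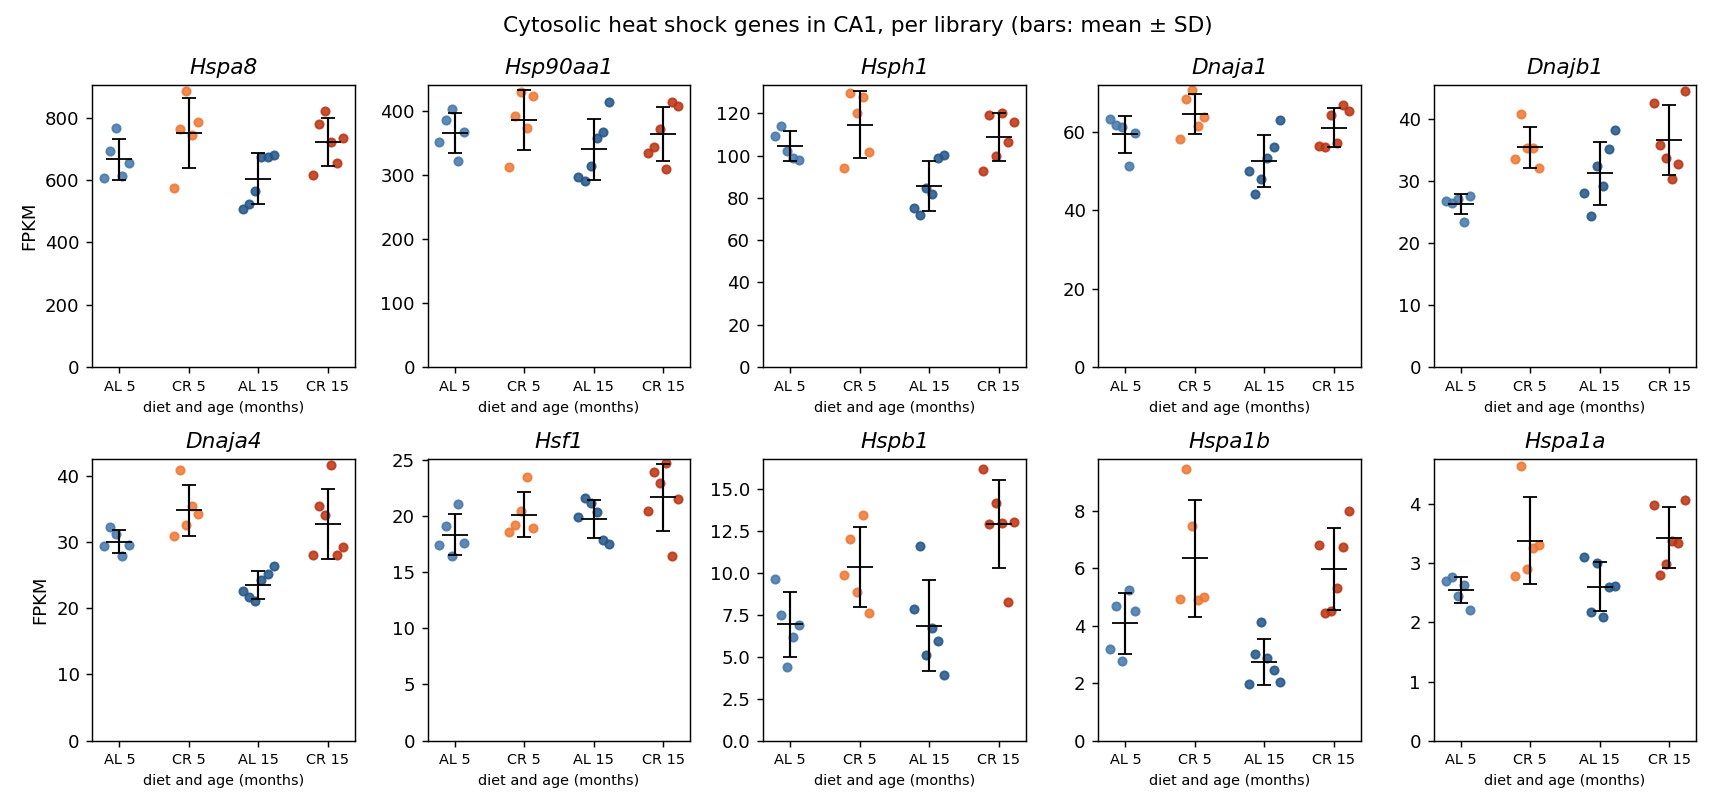
FPKM of each heat shock gene in every library, by diet and age (5 or 15 months), with the vertical axis from 0 and bars for the mean and SD of the group. Hspa1b and Dnaja4 show no overlap between the 15-month AL and CR libraries, and Hspa8 is the highest gene throughout.

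Comparisons were made with limma on log2(FPKM + 0.1) in 1 fit of all 4 groups, with p-values adjusted by Benjamini-Hochberg over all 16978 genes, and a gene was called at an adjusted p under 0.05. A log2 fold change below is on this scale and is given as mean ± SE. The 5 comparisons share groups of libraries, so that their values are given side by side and not as separate support. The 22 libraries were alike in overall level, with a median FPKM between 2.51 and 3.10. Read counts per library were not in the table and the sequencing depth of each library was unknown, so that no counting interval could be given.

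The first question was whether calorie restriction changed chaperone transcripts in older mice. At 15 months, Hspa1b, Hspb1 and Dnaja4 were higher in CR than in AL mice and were called, 3 of the 10 genes, where 0.742% of all tested genes were called in either direction. Mean FPKM was 2.17-fold higher for Hspa1b, 1.88-fold higher for Hspb1 and 1.39-fold higher for Dnaja4. All 10 genes had a positive log2 fold change (49.6% of all genes did) and 8 had an unadjusted p under 0.05 (17.1% of all genes did). The median log2 fold change of the 10 was 0.31, against -0.0012 over all genes. The CR and AL libraries did not overlap at all for Hspa1b and Dnaja4, which was so, with CR higher, for 0.424% of all genes.
The calls lay close to the threshold. None of the 3 was called without AL replicate 0, AL replicate 4 or CR replicate 3 of the 15-month groups, or when the 2 groups were fitted alone, and in these fits, as in every other fit tried, the 3 log2 fold changes stayed positive. These 4 fits called few genes of any kind, 15 of all genes without each of the 3 libraries and 0 when the groups were fitted alone, against 126 with all libraries. Leaving out CR replicate 0 instead gave 732 called genes, 4 of them among the 10. Under 3 other scalings of the libraries all 10 diet values at 15 months stayed positive, and 2 or 3 of the 10 genes were called.

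**Figure D2:**
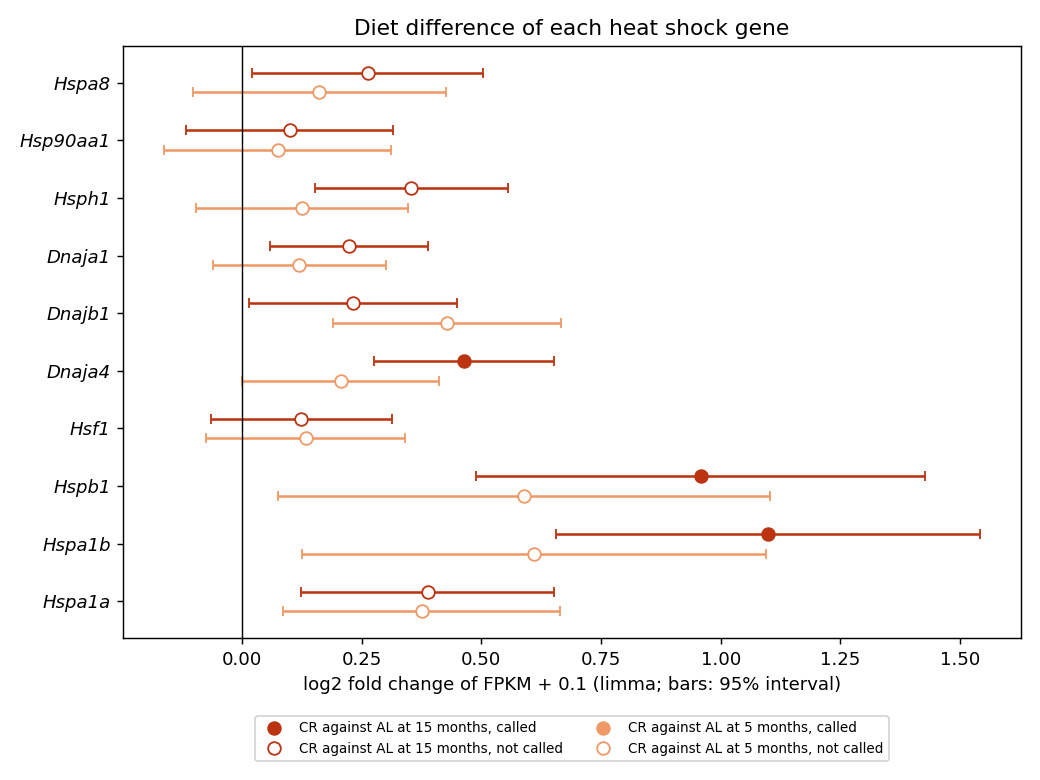
log2 fold change (limma, FPKM + 0.1) of CR against AL mice for each heat shock gene at 15 and at 5 months, with 95% intervals and filled points where the gene was called. All 20 points are above 0, and the 3 filled points are those of Hspa1b, Hspb1 and Dnaja4 at 15 months.

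Hspa1b and Hspa1a encode the stress-inducible Hsp70 and are single-exon genes on the minus strand of chromosome 17 (GENCODE M21, GRCm38, chr17:34956436-34959238 and chr17:34969190-34972156), 9951 bases apart. Hspa1b FPKM at 5 months was 3.18, 4.68, 2.79, 5.25 and 4.50 in AL mice and 4.94, 9.44, 7.46, 4.90 and 4.99 in CR mice. At 15 months it had a median of 2.66 in AL mice (1.99 to 4.15) and 6.02 in CR mice (4.43 to 7.98). Every 15-month CR library was thus above every 15-month AL library, whereas at 5 months the 3 lowest CR libraries lay below the highest AL library. The diet difference was 1.10 ± 0.21 at 15 months (adjusted p = 0.0282, limma) and 0.61 ± 0.23 at 5 months (adjusted p = 1, unadjusted p = 0.0160, limma). Over the 12 fits that left out 1 of the 15-month libraries compared, the Hspa1b difference lay between 1.01 and 1.22 and was called in 8.
Hspa1a FPKM at 5 months was 2.70, 2.77, 2.44, 2.64 and 2.21 in AL mice and 2.79, 4.64, 2.91, 3.27 and 3.31 in CR mice. At 15 months its median was 2.61 in AL mice (2.09 to 3.11) and 3.37 in CR mice (2.80 to 4.08). The 5-month groups were just apart and the 15-month groups overlapped, and 1 CR library (replicate 1 at 5 months) was well above the rest. Its diet difference was 0.39 ± 0.13 at 15 months (adjusted p = 0.135) and 0.38 ± 0.14 at 5 months (adjusted p = 1), neither of them called by limma. Without the high library the 5-month difference of Hspa1a was 0.26 ± 0.13.

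The split of reads between the 2 genes was uncertain. Of all 50-base windows, 58.8% of those in the Hspa1a transcript and 62.3% of those in the Hspa1b transcript occurred in the other, so that a single 50-base read from these stretches fits both genes. The reads were paired, so that a mate outside a shared stretch may place some of them. For pairs that fit both genes, the authors' FPKM rest on a statistical split. The summed FPKM of the pair was 6.63 ± 1.09 (SD, n = 5) in AL and 9.73 ± 2.64 (n = 5) in CR mice at 5 months, and 5.36 ± 0.90 (n = 6) in AL and 9.40 ± 1.91 (n = 6) in CR mice at 15 months. At 15 months the sum ran from 4.66 to 7.15 in AL and from 7.23 to 12.1 in CR libraries and so did not overlap. Tested among all genes in place of the 2 single rows, the sum differed with diet by 0.79 ± 0.15 at 15 months (adjusted p = 0.0299, limma) and by 0.53 at 5 months (adjusted p = 0.923). The median share of Hspa1b in the sum was 62.9% (AL) and 63.9% (CR) at 5 months, and 53.2% (AL) and 62.2% (CR) at 15 months.

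Hspb1 (Hsp27, chr5:135887919-135889563, plus strand) encodes a small heat shock protein found in glia and vessel walls as well as in some neurons. Its FPKM at 5 months was 9.67, 7.51, 4.41, 6.19 and 6.87 in AL mice and 9.90, 12.01, 8.88, 13.4 and 7.59 in CR mice. At 15 months its median was 6.33 in AL mice (3.91 to 11.6) and 13.0 in CR mice (8.28 to 16.2). The groups overlapped at both ages, at 15 months through 1 high AL library (replicate 1) and 1 low CR library (replicate 4). The diet difference was 0.96 ± 0.22 at 15 months (adjusted p = 0.0497, limma) and 0.59 ± 0.25 at 5 months (adjusted p = 1). This call was the least secure of the 3. Over the 12 fits without 1 of the 15-month libraries compared, the value lay between 0.82 and 1.13 and was called in 4, and it was also lost without any 1 of the 10 libraries of 5 months, with adjusted p up to 0.0652. It was lost as well with a pseudocount of 0.01 (0.0536), with all genes above 0 tested (0.0597), with quantile normalization (0.0504), with the common sum over rows other than small RNA genes (0.0749), with no trend in the moderation (0.0543) and with a choroid plexus score as covariate (0.0558), all adjusted p-values of limma.
Of 6 endothelial marker genes, 0 were called between the diets at 15 months by limma, and their summed FPKM ran from 57.3 to 94.4 in AL and from 62.0 to 94.6 in CR libraries. The 6 smooth muscle and pericyte markers summed to between 21.3 and 48.3 FPKM in AL and between 22.9 and 30.3 FPKM in CR libraries, and the 6 astrocyte markers to between 554 and 735 FPKM in AL and between 601 and 904 FPKM in CR libraries, with 0 called in either list. The median log2 fold change was -0.15 for the endothelial, -0.10 for the smooth muscle and pericyte and 0.11 for the astrocyte markers. Single astrocyte markers moved in opposite directions. Gfap was higher in CR mice (0.65 ± 0.21), with all 6 CR libraries above the AL median, and Aldh1l1 was lower (-0.26 ± 0.09). No gene of these 3 lists was at 0 in any library, and the part of these cells in the Hspb1 difference was not tested.

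Among the J-domain proteins, which stimulate the ATPase of Hsp70, Dnaja4 (chr9:54698873-54716315, plus strand) was called. Its FPKM at 5 months was 29.4, 32.2, 31.2, 27.9 and 29.5 in AL mice and 30.8, 40.9, 32.5, 35.4 and 34.2 in CR mice. At 15 months its median was 23.4 in AL mice (21.1 to 26.3) and 31.7 in CR mice (28.0 to 41.5). The 15-month AL libraries formed the lowest group and lay below every library of the other 3 groups. The diet difference was 0.46 ± 0.09 at 15 months (adjusted p = 0.0285, limma) and 0.21 ± 0.10 at 5 months (adjusted p = 1). Over the 12 fits without 1 of the 15-month libraries compared, it lay between 0.39 and 0.51 and was called in 6.

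Dnajb1 (Hsp40, chr8:83608193-83612653, plus strand), a heat-inducible J-domain partner of Hsp70, showed its wider diet difference at 5 months. Its FPKM there was 26.7, 26.4, 27.0, 23.4 and 27.6 in AL mice and 33.6, 40.8, 35.3, 35.3 and 32.2 in CR mice. At 15 months its median was 30.7 in AL mice (24.3 to 38.3) and 34.7 in CR mice (30.3 to 44.4). The 5-month groups were apart, with the AL libraries close together, and the 15-month groups overlapped widely. The diet difference was 0.43 ± 0.11 at 5 months (unadjusted p = 0.00121, adjusted p = 0.824, limma) and 0.23 ± 0.10 at 15 months (adjusted p = 0.262), and neither was called.
Dnaja1 (chr4:40722150-40737149, plus strand) ran from 51.3 to 63.2 FPKM in AL and from 58.3 to 70.7 FPKM in CR mice at 5 months, and from 44.2 to 63.0 FPKM in AL and from 56.0 to 66.8 FPKM in CR mice at 15 months. Its diet difference was 0.22 ± 0.08 at 15 months (adjusted p = 0.166, limma) and 0.12 ± 0.09 at 5 months, with overlapping groups at both ages.

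Hsph1 (Hsp110, chr5:149614287-149636376, minus strand), the nucleotide exchange factor of cytosolic Hsp70, came next after the called genes by unadjusted p at 15 months. Its FPKM at 5 months was 109, 114, 102, 99.0 and 97.8 in AL mice and 94.1, 129, 120.0, 128 and 102 in CR mice. At 15 months its median was 83.2 in AL mice (71.9 to 100.4) and 111 in CR mice (92.5 to 120.3). All 6 of the 15-month CR libraries were above the AL median, but 2 AL libraries reached into the CR range. The diet difference was 0.35 ± 0.10 at 15 months (adjusted p = 0.0802, limma) and 0.13 ± 0.11 at 5 months (adjusted p = 1).

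The 2 most abundant members were not called. Hspa8 (Hsc70, chr9:40800984-40810087, plus strand) had a median of 655 FPKM in AL (607 to 769) and 764 FPKM in CR mice (574 to 887) at 5 months, and of 619.9 FPKM in AL (506 to 681) and 729 FPKM in CR mice (618 to 821) at 15 months. Hsp90aa1 (inducible Hsp90 alpha, chr12:110690605-110702728, minus strand) had a median of 367 FPKM in AL and 393 FPKM in CR mice at 5 months, and of 336 FPKM in AL and 358 FPKM in CR mice at 15 months. For both genes the groups overlapped widely at each age. The diet difference of Hspa8 was 0.26 ± 0.12 at 15 months (95% interval 0.02 to 0.50, adjusted p = 0.256, limma) and 0.16 ± 0.13 at 5 months, and that of Hsp90aa1 was 0.10 ± 0.10 (-0.12 to 0.32, adjusted p = 0.649) and 0.07 ± 0.11.
Hsf1 (chr15:76477422-76501913, plus strand), the factor itself, had a median of 17.6 FPKM in AL and 19.2 FPKM in CR mice at 5 months and of 20.2 FPKM in AL and 22.3 FPKM in CR mice at 15 months. Its diet difference was 0.12 ± 0.09 at 15 months (-0.06 to 0.31, adjusted p = 0.497, limma) and 0.13 ± 0.10 at 5 months (-0.07 to 0.34), and mRNA level gives no account of the activity of the protein.

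At 5 months, CR mice had higher mean levels of all 10 genes, but 0 of the 10 were called by limma, as were 0 of all tested genes (0%). At an unadjusted p under 0.05 there were 5 (Hspa1a, Hspa1b, Hspb1, Dnajb1 and Dnaja4), against 4.65% of all genes. This count rested on single libraries, and was 1 without CR replicate 1, 2 without AL replicate 2 and 3 without CR replicate 3. A positive log2 fold change was found for 49.8% of all genes, and the median was 0.18 for the 10 genes and 0 for all genes. Hspa1a and Dnajb1 did not overlap between the diets, which was so, with CR higher, for 0.530% of all genes. All 7 choroid plexus markers had higher fitted levels in CR mice at 5 months (median log2 fold change 1.59), and 4 of them had an unadjusted p under 0.05 by limma. Their summed FPKM was 272 in CR replicate 4 and 62.8 in CR replicate 3, 11.3 to 14.5 in the other CR libraries and 4.31 to 33.7 in AL libraries. Without CR replicate 4, 4 of the 10 heat shock genes had an unadjusted p under 0.05, and with the choroid plexus score as a covariate 5 did.

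Whether the diet effect itself differed between the ages was tested by the interaction, the difference at 15 months minus that at 5 months. Restriction had begun in early adulthood for both ages, so that the older CR mice had been restricted for longer. Age and time on the diet cannot be told apart here or in the age comparison of CR mice. None of the 10 genes was called by limma and 0 had an unadjusted p under 0.05, against 0% of all genes called and 7.66% at an unadjusted p under 0.05. The interaction was 0.49 for Hspa1b (95% interval -0.17 to 1.14, adjusted p = 0.721), 0.37 for Hspb1 (-0.33 to 1.06), 0.26 for Dnaja4 (-0.02 to 0.54, adjusted p = 0.657), 0.23 for Hsph1 (-0.07 to 0.53) and -0.20 for Dnajb1 (-0.52 to 0.12). These intervals include 0 as well as differences as large in size as the 15-month diet effects, so that a like and an unlike diet effect at the 2 ages were both within the error.

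The second question was how the same genes changed with age on each diet. In AL mice, Dnaja4 and Hsph1 were lower at 15 than at 5 months and were called, 2 of the 10 genes, which is close to the 20.6% of all genes that were called in either direction. Dnaja4 changed by -0.35 ± 0.09 (adjusted p = 0.0126, limma) and its 15-month libraries all lay below its 5-month libraries, as was so for 6.77% of all genes. Hsph1 changed by -0.30 ± 0.10 (adjusted p = 0.0427), and 2 of its 15-month libraries fell within the range of 5 months. The call of Dnaja4 was kept in all 11 fits that left out 1 of the AL libraries, whereas that of Hsph1 was kept in 2 of 11. Both calls depended on scaling. With libraries set to a common sum over rows other than small RNA genes, which moved the median of all genes to 0.11, Dnaja4 changed by -0.24 ± 0.09 (adjusted p = 0.0630) and Hsph1 by -0.18 ± 0.10 (adjusted p = 0.178), and Dnajb1 was the single gene of the 10 that was called (0.35, adjusted p = 0.0242).
Hspa1b changed by -0.56 ± 0.22 (adjusted p = 0.0798), and was called lower with quantile normalization (-0.66, adjusted p = 0.0361, where Hsph1 was not, adjusted p = 0.0975) and without AL replicate 2 of 15 months (-0.68, adjusted p = 0.0334). Dnaja1 changed by -0.18 ± 0.08 (adjusted p = 0.117) and Dnajb1 by 0.23 ± 0.11 (adjusted p = 0.132), and none of the 3 was called by limma in all libraries as deposited. In all, 7 of the 10 values were negative (50.4% of all genes; 5 to 8 of the 10 under other scalings) and 5 had an unadjusted p under 0.05 (35.2% of all genes). The latter count was 2 without AL replicate 1 of 5 months, 3 without each of 6 other AL libraries (replicates 0, 2 and 3 of 5 months and 0, 2 and 5 of 15 months) and 2 with the common sum over rows other than small RNA genes. The inducible Hsp70 Hspa1a (0.02 ± 0.13), the small heat shock protein Hspb1 (-0.05 ± 0.24) and the factor Hsf1 (0.11 ± 0.10) were not called either.

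In CR mice, 0 of the 10 genes were called between 15 and 5 months by limma, and 0 had an unadjusted p under 0.05, where 3.36% of all genes were called and 18.0% had an unadjusted p under 0.05. The values ran from -0.10 ± 0.09 for Dnaja4 to 0.32 ± 0.24 for Hspb1. For Dnaja4 the 95% interval was -0.29 to 0.10 in CR mice and -0.55 to -0.16 in AL mice, and for Hsph1 it was -0.28 to 0.14 in CR mice and -0.51 to -0.09 in AL mice. The difference between the diets in the age change is the interaction given above, which was not called for either gene.

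**Figure D3:**
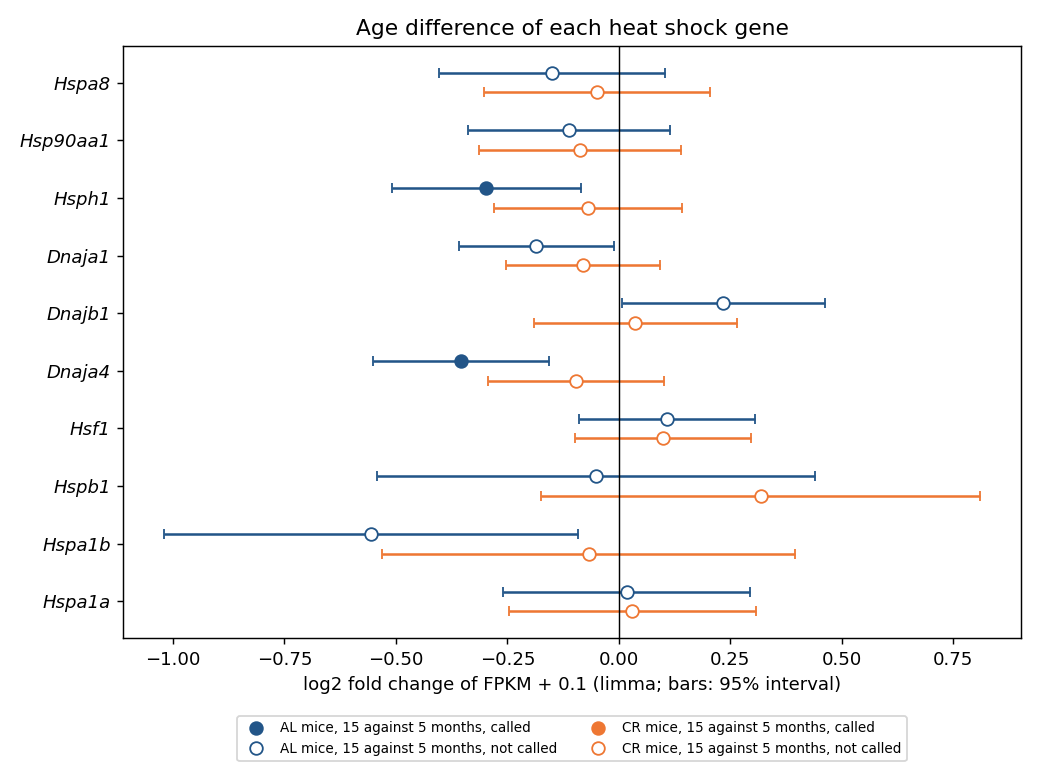
log2 fold change (limma, FPKM + 0.1) between 15 and 5 months for each heat shock gene in AL and in CR mice, with 95% intervals and filled points where the gene was called. The filled points are Dnaja4 (-0.35) and Hsph1 (-0.30) in AL mice, and every CR interval includes 0.

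The tissue label was checked against marker genes, since the age groups differed in them. The 8 CA1 pyramidal neuron markers were above 0 in every library, with a summed FPKM of 295 to 621 in AL and 366 to 528 in CR mice at 5 months, and of 278 to 364 in AL and 137 to 539.5 in CR mice at 15 months. With age in AL mice, 4 of these 8 were called lower, 3 of 9 neocortex and subiculum markers higher, 3 of 5 dentate gyrus markers lower and 4 of 7 choroid plexus markers lower, where 20.6% of all genes were called. Between the diets at 15 months 0 markers of these lists were called by limma and 6 had an unadjusted p under 0.05, with list medians of 0.37 (CA1), -0.42 (neocortex and subiculum), 0.92 (dentate gyrus) and -0.08 (choroid plexus). A region score, the mean log2 level of the neocortex and subiculum markers minus that of the CA1 markers, had a median of -3.54 in AL and -3.62 in CR mice at 5 months and of -1.66 (-2.29 to -0.83) in AL and -2.16 (-3.58 to -1.18) in CR mice at 15 months. The age groups of AL mice did not overlap in this score, so that age and region cannot be told apart for them.
With the region score as a covariate, 0 of the 10 genes were called in either the age comparison of AL mice or the diet comparison at 15 months. The age change of Dnaja4 was then -0.12 ± 0.13 and that of Hsph1 -0.34 ± 0.16, and the diet differences at 15 months were 1.16 ± 0.24 for Hspa1b (adjusted p = 0.0861, limma), 0.90 ± 0.25 for Hspb1 (adjusted p = 0.180) and 0.37 ± 0.09 for Dnaja4 (adjusted p = 0.137). The diet values thus kept most of their size and lost their calls, and the age value of Dnaja4 was reduced.

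The other chaperone genes were described by lists of the same pathway. Among 14 chaperones of the endoplasmic reticulum (ER), all had a positive diet difference at 15 months, with a median of 0.37. Of these, 8 were called higher in CR than in AL mice, where 0.742% of all genes were called in either direction. They included Hspa5 (BiP, the Hsp70 of the ER; 0.66 ± 0.11, adjusted p = 0.0137, limma), Sdf2l1, a partner of the ER J-domain proteins (0.96 ± 0.19), Manf, a secreted ER stress protein (0.56 ± 0.10), and Dnajb11, an ER J-domain protein (0.28 ± 0.06). At 5 months all 14 were also positive with a median of 0.34 and 0 were called, although 12 had an unadjusted p under 0.05 by limma.
In the cytosol, 1 of 9 Hsp90 partners was called at 15 months, Chordc1 (0.44 ± 0.09, adjusted p = 0.0342), a heat-inducible Hsp90 cochaperone, and the list median was 0.23. The 8 subunits of the chaperonin TRiC were all positive at 15 months (median 0.17) and at 5 months (median 0.08), with 0 called at either age and 6 and 0 at an unadjusted p under 0.05 by limma. Of all genes, 17.1% were under that threshold at 15 months and 4.65% at 5 months. No gene was called with diet at 15 months among 7 other Hsp70 and Hsp110 genes (median 0.07, 2 at an unadjusted p under 0.05), 8 other J-domain genes (0.12, 1), 6 nucleotide exchange factors (0.09, 1), 4 other heat shock factors (0.0033, 1), 4 mitochondrial chaperones (0.11, 1) and 6 other small heat shock proteins (-0.24, 0) by limma. Hspb1 thus differed in sign from 5 of the 6 other small heat shock genes.

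**Figure D4:**
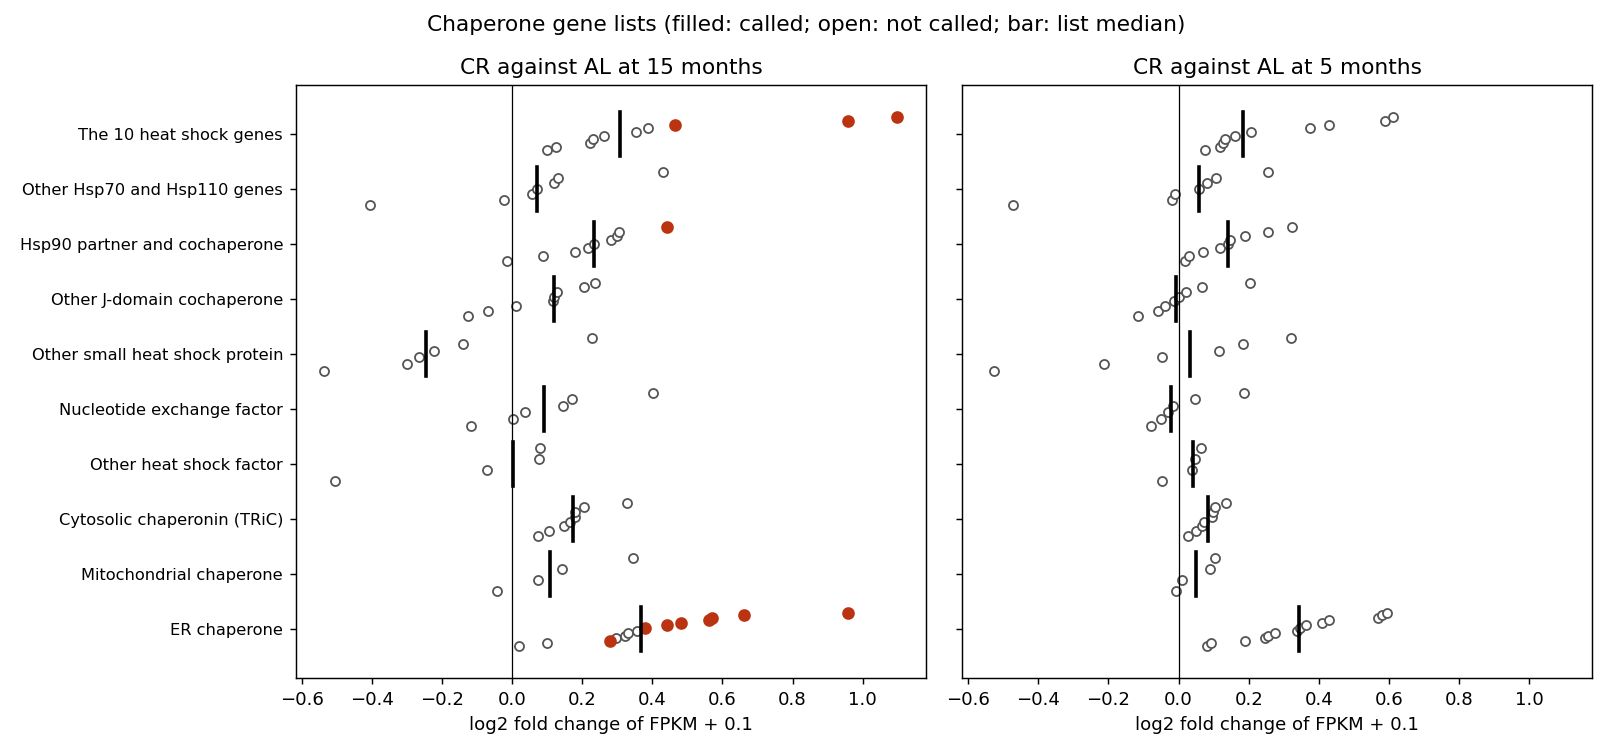
log2 fold change (limma, FPKM + 0.1) of CR against AL mice for the 10 heat shock genes and 9 lists of other chaperone genes at 15 months (left) and 5 months (right), with one point per gene, filled where called, and a bar at the list median. The filled points are 3 of the heat shock genes, Chordc1 and 8 of the 14 ER chaperones, all at 15 months.

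With age in AL mice, 9 of the 66 genes of these lists were called (13.6%), where 20.6% of all genes were called. This count depended on scaling. With libraries set to a common median, 4 of 9 Hsp90 partners, 3 of 8 TRiC subunits and 4 of 14 ER chaperones were called. In the values as deposited these were 1, 1 and 2. Over all genes 3727 were called with the common median, against 3502 as deposited. Called lower were Ahsa1, an activator of the Hsp90 ATPase (-0.28 ± 0.09, adjusted p = 0.0292, limma), the J-domain gene Dnaja2 (-0.22 ± 0.07), the exchange factors Bag3 (-0.55 ± 0.18) and Bag5 (-0.32 ± 0.10), the TRiC subunit Cct5 (-0.39 ± 0.10), the mitochondrial cochaperonin Hspe1 (-0.44 ± 0.09), and Pdia3 and Sdf2l1 of the ER. The heat shock factor Hsf4 was called higher (0.94 ± 0.14, adjusted p = 0.000325). All 8 TRiC values and all 9 Hsp90 partner values were negative, with medians of -0.15 and -0.17, but with the common sum over rows other than small RNA genes 2 and 3 of them were positive. Under that scaling 0 genes were called among the Hsp90 partners, the other J-domain genes and the ER chaperones. The calls of Ahsa1, Dnaja2, Pdia3 and Sdf2l1 were thus lost. Age and region cannot be told apart in AL mice for these genes either. In CR mice no gene of the 9 lists was called with age.

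Within groups, members varied together in part. After subtracting group means, log2 values over the 22 libraries gave Pearson's r of 0.87 between Hsp90aa1 and Dnaja1, 0.72 between Hspa8 and Hsp90aa1, 0.63 between Hsph1 and Dnaja4, 0.60 between Hspa8 and Dnaja1 and 0.41 between Hspa1a and Hspa1b, which share reads. Negative values were -0.58 between Dnaja1 and Hsf1 and -0.58 between Hsp90aa1 and Hspb1. The most abundant chaperones thus varied together from mouse to mouse, and the called genes did not form a group of their own, with r = 0.09 between Hspa1b and Hspb1, -0.28 between Hspa1b and Dnaja4 and -0.03 between Hspb1 and Dnaja4. All these values come from the same libraries and share their scaling and tissue makeup. The region score had r of -0.59 with Hsf1, 0.52 with Dnaja1, -0.49 with Dnaja4 and 0.47 with Hsp90aa1 over the same libraries, and its part in the pairs was not tested.

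**Figure D5:**
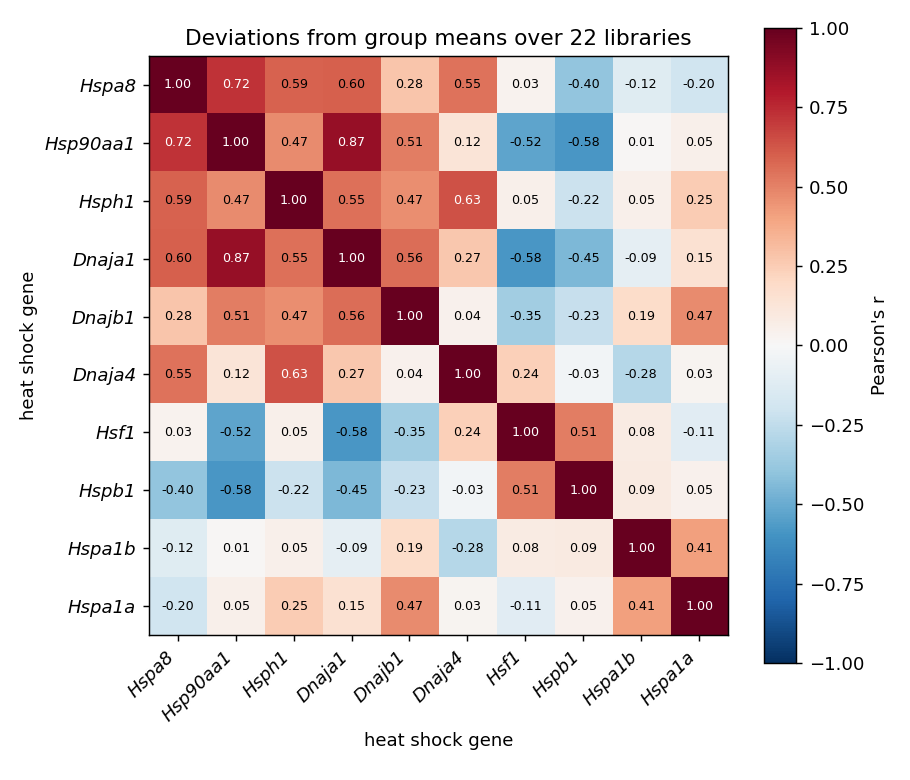
Pearson's r between heat shock genes of log2(FPKM + 0.1) after subtracting group means, over 22 libraries, on a color scale from -1 to 1. The block of high values at the upper left holds Hspa8, Hsp90aa1, Hsph1 and Dnaja1, with the highest value, 0.87, between Hsp90aa1 and Dnaja1.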

How the data were processed

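mRNA was sequenced from hippocampal CA1 tissue of 22 mice, 1 library per mouse, so that replicates were animals. The authors made the deposited FPKM values by aligning reads to mm10 with TopHat, removing likely PCR duplicates with Picard and estimating expression with Cufflinks, correcting for fragment bias and dividing multiply mapped reads among their loci. Tool versions and the gene annotation release were not given in the sources used here. No read counts were in the table, so the depth of each library was unknown and precision rests on the number of mice. No column of the table was left out (0 columns not used).

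Groups and replicate numbers were taken from the sample titles. Genes whose FPKM averaged 0.1 or more were kept, and log2(FPKM + 0.1) was fitted with limma 3.58.1 (eBayes with a trend) in R 4.3.3 over all 4 groups, with 5 contrasts and two-sided p-values adjusted by Benjamini-Hochberg over all tested genes. The script was tested on simulated data. Promoters were searched in Python 3.11.15. The genes named were the 10 members, called genes of the chaperone lists (not all of those of the ER), and the astrocyte markers Gfap and Aldh1l1. Also named were the 6 genes whose deviations from group means were most like those of Hspa1b. Members, lists and tests were chosen with earlier results of these data known.

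Alternatives were the pseudocount, the filter on low values, 3 scalings, the moderation, separate fits, a replicate block, region and choroid plexus scores as covariates, the summed Hspa1 genes, and leaving out each library. Same-numbered libraries of different groups showed little joint deviation over 31 pairs (r from -0.139 to 0.163, with 2 above 0.1). Pairs with different numbers were not set beside them, so that whether the numbers stand for a shared batch was not tested.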

Additional observations from a re-analysis of the deposited data

Results flagged for a closer look

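Hspa1a in CR replicate 1 at 5 months had 4.64 FPKM, where the nearest library of its group had 3.31 FPKM. Dnajb1 in AL replicate 3 at 5 months had 23.4 FPKM, where the nearest library of its group had 26.4 FPKM. Both values were set apart because their gap to the next library took an unusually large share of the range of the group (0.721 and 0.718). Of 40 groups of values checked 2 were marked, and chance marks about 1 in 20. Without these libraries the diet difference at 5 months was 0.26 ± 0.13 for Hspa1a and 0.39 ± 0.12 for Dnajb1 on the log2 scale.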

How the results depend on the processing

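Of the 10 genes, 3 were called with diet at 15 months and 2 with age in AL mice. Leaving out 1 library gave 0 to 4 and 1 to 3 called genes. With diet, fitting the 2 groups alone or with the region score as a covariate gave 0. With age in AL mice the region score gave 0, and the choroid plexus score and the common sum over rows other than small RNA each gave 1. That sum also moved the calls over all genes with age in AL mice from 1809 higher and 1693 lower to 3093 and 901, and the region score left 47 called genes with age and 8 with diet. With the replicate number as a block, 3 genes were called with diet and 3 with age in AL mice, where Dnaja1 was added (adjusted p = 0.0455, limma). Over all genes the block gave 323 called with diet at 15 months and 3754 with age in AL mice, against 126 and 3502 without it.

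No called value changed sign under any alternative. The values that did were small and not called, and the cause was not tested. For age in AL mice, Hspa1a was -0.029 (common median), -0.11 (quantile normalization), -0.010 (replicate block), -0.12 (region score) and -0.014 (choroid plexus score), Hspb1 was 0.061 (common sum), 0.016 (replicate block) and 0.090 (region score), Hspa8 was 0.042 (quantile), and Hsp90aa1 was 0.024 (quantile) and 0.0026 (common sum). For age in CR mice, Hspa1a was -0.073 and -0.030, and Dnajb1 -0.12 and -0.011 (region and choroid plexus scores), Dnajb1 was -0.023 (replicate block), Hspa8 was 0.17 (quantile) and 0.0020 (region score), and Dnaja4 was 0.071 (region score). For the interaction, Hsf1 was 0.032 (common median), Hsp90aa1 was -0.055 (quantile) and -0.058 (common sum), and Hspa1a was -0.068 (common sum) and -0.016 (choroid plexus score).

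Leaving out 1 library, values that changed sign ran from -0.035 to 0.075 for Hspa1a and from -0.22 to 0.091 for Hspb1 with age in AL mice. With age in CR mice they ran from -0.031 to 0.15 for Hspa1a, -0.16 to 0.087 for Hspa1b, -0.14 to 0.015 for Hspa8 and -0.022 to 0.089 for Dnajb1. For the interaction they ran from -0.049 to 0.13 for Hspa1a, -0.049 to 0.084 for Hsp90aa1 and -0.060 to 0.069 for Hsf1.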

Other observations

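Among the 13829 genes that averaged 1 FPKM or more, those whose deviations from group means over the 22 libraries were most like those of Hspa1b were Usp30 (r = 0.67, rho = 0.61), Fchsd2 (0.67 and 0.65), Mir344f (0.67 and 0.54), Dak (0.66 and 0.71), Top1mt (0.65 and 0.59) and Mir3074-2 (0.64 and 0.56). These values are a description over libraries that share their scaling and tissue makeup. None of the 6 was called in a diet comparison by limma. The 2 microRNA rows varied very widely, with diet differences at 15 months of 0.13 ± 3.51 (Mir344f) and 0.016 ± 2.74 (Mir3074-2). The 8 immediate early genes, which mark recent neuronal activity, summed to between 112 and 643 FPKM in AL and between 124 and 576 FPKM in CR libraries at 15 months, and 0 of the 8 were called with diet or age by limma.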
